A study of Homo sapiens with 4 samples.

Results

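BRD8 chromatin immunoprecipitation sequencing peaks were examined at the ends of long noncoding RNA (lncRNA) genes that stand apart from protein-coding genes. A peak region was included when its summit, the position of highest signal in the region, was no more than 1 kb from an end of a lncRNA-biotype gene, and that gene lay at least 2 kb from every protein-coding gene in the RefSeq gene table of GRCh38. The small nucleolar RNA host genes of the SNHG series, MIR17HG, MALAT1 and NEAT1 were left out. This gave 463 of 22303 regions in HCT116 cells (2.08%) and 273 of 12874 regions in SW480 cells (2.12%), 736 of 35177 regions in all. They lay at the ends of 532 of 9758 isolated lncRNA genes. HCT116 and SW480 are established human colorectal cancer lines, grown in McCoy's 5A medium and in Leibovitz's L-15 medium respectively. No treatment or genetic change is named for either line. Chromatin was fixed with formaldehyde, cut with micrococcal nuclease and precipitated with 1 polyclonal BRD8 antibody, and an input library without antibody accompanied each line. Each line gave 1 ChIP library, so every value below describes a single library, differences between HCT116 and SW480 cannot be set against replicate spread, and no test was made. Intervals are 95% Wilson intervals and cover counting error only.

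Long noncoding RNA genes are transcribed by RNA polymerase II into capped RNAs that do not encode a known protein. Some act in the nucleus on chromatin, some act in the cytoplasm, some are carriers of microRNAs or small nucleolar RNAs, and many have no described role. BRD8 is a bromodomain subunit of the TIP60/NuA4 complex, which acetylates histones H4 and H2A and exchanges H2A.Z, largely at gene starts. An isolated lncRNA gene has a start that no coding gene shares, so a summit there lies at least 1 kb from every annotated coding gene. The region around a summit can reach farther: 1 of the 463 HCT116 regions overlapped a coding gene, and none of the 273 in SW480 did.

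The promoter sequences below show the letters at the starts of some lncRNA genes named in the results. They are examples, and the composition and motif shares of isolated lncRNA genes given later rest on 5499 promoters. FIRRE, DANCR, MIRLET7IHG and DLEU1 had some of the strongest peaks that both lines shared, NORAD is a well-studied abundant lncRNA, LINC00339 is part of a pair of genes served by 1 region, LINC02313 had the second highest fold of SW480, and LOC101928126 had a peak in SW480 alone. Each is 300 bases of RefSeq sequence, GRCh38.p14, from 250 bases before the listed start to 50 bases from the start on, read 5′ to 3′ along the gene. The windows are chrX:131830594-131830893 on the minus strand for FIRRE, chr4:52712144-52712443 on the plus strand for DANCR, chr12:62602493-62602792 on the plus strand for MIRLET7IHG and chr13:50081919-50082218 on the plus strand for DLEU1. Those of the others are chr20:36050911-36051210 on the minus strand for NORAD, and chr1:22024941-22025240 for LINC00339, chr14:31944603-31944902 for LINC02313 and chr21:33976132-33976431 for LOC101928126, all on the plus strand. Capitals mark matches to any of 10 short motifs, listed with the promoter results, on either strand. The strongest summits lay inside the printed window for MIRLET7IHG and NORAD and outside it for the other genes.
FIRRE: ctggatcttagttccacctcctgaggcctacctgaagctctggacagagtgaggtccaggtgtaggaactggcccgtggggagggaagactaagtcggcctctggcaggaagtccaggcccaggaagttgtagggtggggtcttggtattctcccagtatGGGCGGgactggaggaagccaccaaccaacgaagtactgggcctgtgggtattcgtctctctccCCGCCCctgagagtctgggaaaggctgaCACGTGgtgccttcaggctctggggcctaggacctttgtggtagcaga
DANCR: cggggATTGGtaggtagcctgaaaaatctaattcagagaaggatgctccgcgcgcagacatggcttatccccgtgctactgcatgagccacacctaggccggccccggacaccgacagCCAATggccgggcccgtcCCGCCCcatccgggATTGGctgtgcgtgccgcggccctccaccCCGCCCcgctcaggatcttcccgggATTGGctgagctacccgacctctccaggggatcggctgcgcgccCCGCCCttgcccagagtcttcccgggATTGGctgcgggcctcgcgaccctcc
MIRLET7IHG: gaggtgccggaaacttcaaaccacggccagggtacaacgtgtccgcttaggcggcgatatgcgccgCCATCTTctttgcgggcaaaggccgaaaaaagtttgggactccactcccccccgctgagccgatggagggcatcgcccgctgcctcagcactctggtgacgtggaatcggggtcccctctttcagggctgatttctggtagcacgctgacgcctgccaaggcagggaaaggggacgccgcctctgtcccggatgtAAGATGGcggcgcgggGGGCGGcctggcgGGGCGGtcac
DLEU1: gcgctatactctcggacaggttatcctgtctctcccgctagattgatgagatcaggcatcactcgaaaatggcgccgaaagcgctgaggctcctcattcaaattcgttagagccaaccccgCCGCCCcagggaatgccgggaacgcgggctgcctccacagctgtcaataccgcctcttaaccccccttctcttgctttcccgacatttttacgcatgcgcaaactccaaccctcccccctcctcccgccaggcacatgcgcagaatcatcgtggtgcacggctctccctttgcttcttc
NORAD: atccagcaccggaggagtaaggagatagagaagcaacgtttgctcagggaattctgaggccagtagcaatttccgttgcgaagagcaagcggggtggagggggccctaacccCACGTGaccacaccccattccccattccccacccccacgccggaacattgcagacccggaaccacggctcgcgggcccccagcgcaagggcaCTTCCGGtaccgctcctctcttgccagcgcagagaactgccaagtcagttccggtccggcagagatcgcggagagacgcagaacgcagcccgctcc
LINC00339: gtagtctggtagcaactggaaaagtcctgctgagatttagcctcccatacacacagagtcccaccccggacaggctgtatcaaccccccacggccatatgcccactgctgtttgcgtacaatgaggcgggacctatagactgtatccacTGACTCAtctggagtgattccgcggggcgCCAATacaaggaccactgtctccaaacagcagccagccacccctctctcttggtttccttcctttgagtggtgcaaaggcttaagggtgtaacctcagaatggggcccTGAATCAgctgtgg
LINC02313: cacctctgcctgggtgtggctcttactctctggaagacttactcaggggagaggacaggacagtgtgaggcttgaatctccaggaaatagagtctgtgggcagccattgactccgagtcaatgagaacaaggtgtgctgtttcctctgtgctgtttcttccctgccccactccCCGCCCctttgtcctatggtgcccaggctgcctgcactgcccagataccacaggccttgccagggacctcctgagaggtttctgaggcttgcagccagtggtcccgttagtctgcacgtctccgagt
LOC101928126: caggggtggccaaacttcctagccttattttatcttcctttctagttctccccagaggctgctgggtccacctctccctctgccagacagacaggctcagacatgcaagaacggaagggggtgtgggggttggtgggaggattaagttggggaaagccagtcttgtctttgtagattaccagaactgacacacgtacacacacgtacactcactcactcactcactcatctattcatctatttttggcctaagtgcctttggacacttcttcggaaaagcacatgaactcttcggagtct
DANCR held 5 CCAAT boxes and 3 GGGCGG boxes on either strand, MIRLET7IHG held 2 matches to the YY1 motif and 2 to GGGCGG, and FIRRE held 2 GGGCGG boxes and 1 CACGTG. LOC101928126 held none of the 10 motifs in this window. GC content was 67.7% for DANCR, 65.0% for MIRLET7IHG, 63.0% for NORAD, 59.3% for FIRRE, 57.7% for DLEU1, 57.3% for LINC02313, 54.7% for LINC00339 and 49.7% for LOC101928126.

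An end peak, meaning at least 1 summit no more than 1 kb from an end of the gene, was found at few isolated lncRNA genes. In HCT116, 423 of 9758 genes had one (4.33%, interval 3.95 to 4.76%), and in SW480, 231 had one (2.37%, interval 2.08 to 2.69%). Over all genes of the table the shares were 20.4% in HCT116 and 10.4% in SW480, and over protein-coding genes 44% and 22.1%. Setting protein-coding genes under the same isolation rule, at least 2 kb from every other coding gene, gave 34.7% and 16.9%. The lncRNA genes that lay under 2 kb from a coding gene had end peaks in 25.2% and 13.5% of cases, where the coding gene's own end can lie in the same window. Pseudogenes at the same distance from coding genes supplied a second reference: 4.07% and 1.51% of the transcribed ones had an end peak, and 0.649% and 0.377% of the others. The shares of isolated lncRNA genes therefore lay below those of every other kind of lncRNA or coding gene counted, near those of transcribed pseudogenes, and above those of other pseudogenes.

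**Figure D1:**
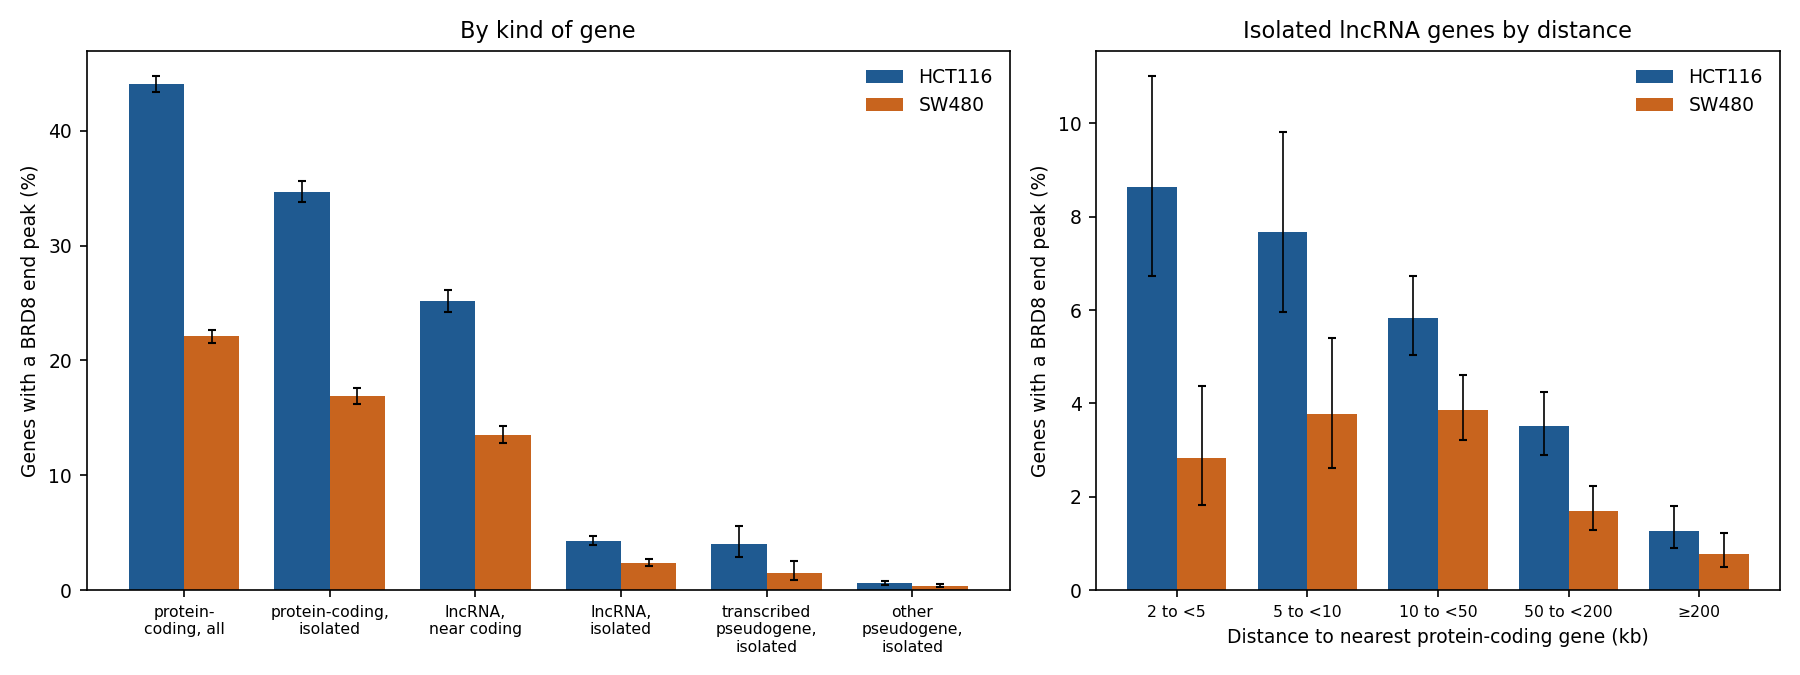
Left, percent of genes (vertical axis) with a BRD8 end peak by kind of gene in HCT116 (blue) and SW480 (orange); right, percent of isolated lncRNA genes with an end peak by distance to the nearest protein-coding gene in kb. Bars are shares and error bars 95% Wilson intervals over genes of 1 library per line. Isolated lncRNA genes stood at 4.33% and 2.37% against 44% and 22.1% of coding genes, and the share was lowest, 1.28% and 0.783%, in the group of genes 200 kb or more from a coding gene.

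The share with an end peak was lower for lncRNA genes farther from coding genes. In HCT116 it was 8.63% of the 672 genes at 2 to under 5 kb, 7.67% of 743 at 5 to under 10 kb, 5.83% of 2986 at 10 to under 50 kb, 3.52% of 2930 at 50 to under 200 kb and 1.28% of 2427 at 200 kb and over. In SW480 the same groups gave 2.83%, 3.77%, 3.85%, 1.71% and 0.783%. The first 3 SW480 groups had overlapping intervals (1.82 to 4.37%, 2.62 to 5.39% and 3.22 to 4.60%), and the group at 10 to under 50 kb had an interval above that at 50 to under 200 kb (1.30 to 2.24%). Measured from the summit rather than the gene, the median distance to the nearest listed coding start was 51310 bp over 439 HCT116 regions and 54840 bp over 250 SW480 regions (regions on chromosome 8 were not measured). Under 5 kb from such a start lay 12 and 8 of them, and 51 and 28 lay at 200 kb or more.

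Genes with more established names had end peaks more often. Among genes with a name of their own, such as NORAD or FIRRE, 45 of 383 had an end peak in HCT116 (11.7%) and 37 in SW480 (9.66%). Of the 2083 LINC genes, which are numbered intergenic lncRNAs, 123 (5.91%) and 76 (3.65%) had one. Of the 7159 genes with provisional LOC symbols, 240 (3.35%) and 109 (1.52%) had one. MicroRNA host genes, named MIR and HG, counted 7 (12.96%) and 4 (7.41%) of 54, and the intervals of this small class, 6.42 to 24.4% and 2.92 to 17.6%, were wide. The same order held for annotation status: genes with a curated transcript had end peaks in 7.12% and 4.46% of 3075 cases, and those with predicted transcripts alone in 3.05% and 1.41% of 6683. Isolated antisense genes had 6 and 3 of 61 and divergent transcripts 2 and 2 of 12, while none of the 5 intronic transcripts and the 1 overlapping transcript had an end peak in either line.

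Peaks lay mostly at the 5′ end of the gene, where transcription starts. Strand was listed for 5726 of the 9758 isolated lncRNA genes (58.7%) and for 356 of the 532 genes with an end peak. Of the regions at such genes, 251 of 321 in HCT116 (78.2%, interval 73.4 to 82.4%) and 145 of 197 in SW480 (73.6%, interval 67.0 to 79.3%) lay nearest to a 5′ end. In short genes the windows of both ends meet, so the ends were also compared over the 4006 genes of at least 5 kb. There, 150 genes in HCT116 (3.74%) had a peak at the 5′ end and 30 at the 3′ end (0.749%), and in SW480 the counts were 79 (1.97%) and 25 (0.624%). Both ends were marked in 7 and 6 of these genes. Coding genes of that length had 5′ peaks in 47.5% and 24.9% of 13481 cases and 3′ peaks in 3.49% and 1.26%.

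Around the 5′ end the summits were spread over the whole window. In HCT116, 278 pairs of a gene and a summit had a median offset of 81 bp into the gene, with quartiles from 262 bp before the start to 292 bp into the gene. In SW480, 164 pairs had a median of 73.5 bp into the gene and quartiles from 378 bp before the start to 364 bp into it. Summits within 250 bp of the start numbered 126 and 56, and summits more than 750 bp away 31 and 19. Downstream of the start lay 161 of the HCT116 summits and 86 of those in SW480. In the plot of summit positions, HCT116 has its tallest bars in the first 300 bp of the gene, and SW480 has similar heights on either side of a low point at the start itself.

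**Figure D2:**
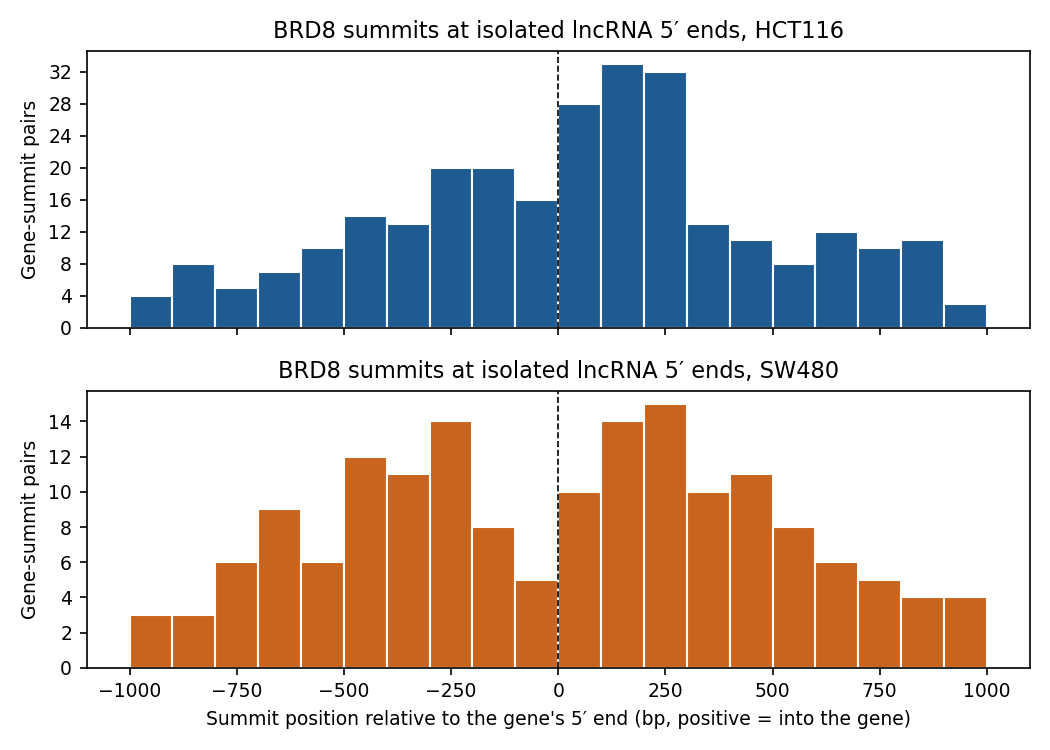
Number of gene-summit pairs (vertical axis) by summit position relative to the 5′ end of isolated lncRNA genes in bp (horizontal axis, bars of 100 bp, positive into the gene), HCT116 above and SW480 below; the dashed line is the 5′ end. The HCT116 summits, 278 pairs, had a median of 81 bp and the SW480 summits, 164 pairs, a median of 73.5 bp.

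The peaks at isolated lncRNA ends were of middling strength within their own lists. Fold enrichment, the authors' ratio of ChIP signal to local background at the summit, had a median of 3.81 in HCT116 (lowest 1.95, quartiles 3.19 and 4.65, highest 15.5) and 3.24 in SW480 (lowest 1.81, quartiles 2.75 and 3.88, highest 8.89). Within the whole lists these regions had a median percentile of 54.3 by fold in HCT116 and 46.0 in SW480, and regions at coding gene ends had median folds of 4.43 and 3.25. Of the isolated lncRNA regions, 39 (8.42%) in HCT116 and 29 (10.6%) in SW480 belonged to the top 10% of their list by fold. At coding gene ends the shares were 19.5% and 14.1%. The HCT116 regions thus had lower folds than those at coding ends, and the SW480 medians of the 2 kinds differed by less than the width of their intervals (3.13 to 3.40 and 3.22 to 3.28).

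Widths and depths gave a similar picture. Median width was 622 bp in HCT116 against 925 bp at coding ends, and 429 bp in SW480 against 508 bp. The number of fragments stacked at the summit, recovered from the deposited fold and p, had a median of 24 in HCT116 (lowest 13, highest 112) and 31 in SW480 (lowest 14, highest 162). The local background had medians of 5.65 and 8.65 fragments. At coding ends, the median pileups were 31 and 37. A peak of 24 fragments rests on few molecules, and a weaker site in either line may have gone uncalled at these depths. HCT116 regions nearest to a 5′ end had a median fold of 3.92 and those nearest to a 3′ end 3.69, and in SW480 the values were 3.27 and 3.38.

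**Figure D3:**
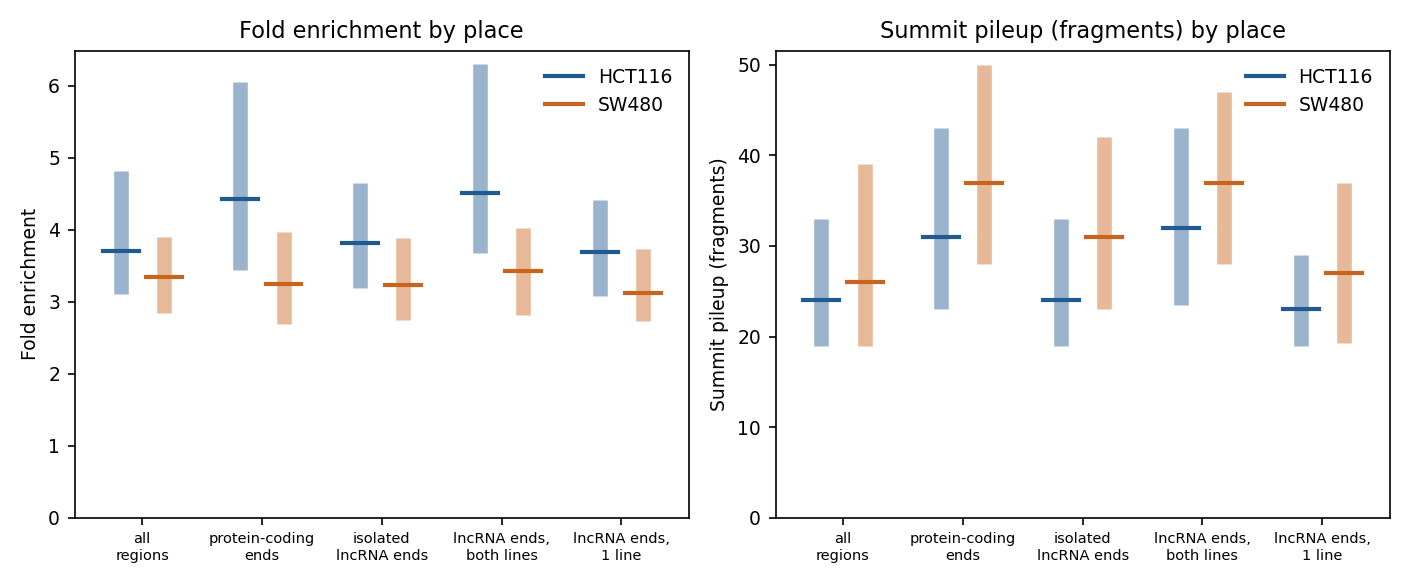
Fold enrichment (left) and fragments at the summit (right) for all regions, regions at protein-coding gene ends, regions at isolated lncRNA ends, and the last split into those that overlapped a region of the other line and those of 1 line. Thick bars run from the first to the third quartile and short lines are medians; blue is HCT116 and orange SW480. HCT116 lncRNA regions had a median fold of 3.81 against 4.43 at coding ends, and those shared with SW480 a median of 4.51.

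The strongest members included several lncRNAs of known biology. MIRLET7IHG, the host transcript of the tumour-suppressive microRNA let-7i, had the highest fold in HCT116, 15.5 from 112 fragments over a background of 6.31, and 5.63 in SW480 from 63 fragments over 10.4. Its region spanned 4102 bp in HCT116 and 2190 bp in SW480, and the summits of the lines lay 5 bp apart, 115 and 110 bp upstream of the start within the printed sequence. The gene occupies chromosome 12 from 62602743 to 62622214, 2267 bp from the coding gene MON2, and an end of LINC01465, a lncRNA gene that is not isolated, lies at the same summit.

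DLEU1, a lncRNA gene of the region of chromosome 13 that is deleted in lymphocytic leukaemia, had folds of 13.96 in HCT116 and 5.42 in SW480, from 69 and 56 fragments over backgrounds of 4.02 and 9.51. The gene spans 50082169 to 50528643, its summits lay 430 and 445 bp into the gene, and the nearest coding gene, KCNRG, was 61247 bp away. FLJ46875, on chromosome 2 and 3851 bp from the nuclear receptor gene NR4A2, had 4 regions at its ends in HCT116, the strongest at 13.5, and 2 in SW480, the strongest at 4.86. LINC01730, 2379 bp from the cell cycle phosphatase gene CDC25B on chromosome 20, had 3 regions in each line, with highest folds of 10.8 and 4.51. The HCT116 maximum lay toward the 3′ end and the SW480 maximum toward the 5′ end of this gene of 3941 bp. At these 3 genes the HCT116 fold was higher, and the SW480 background was the larger.

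FIRRE, an X-linked lncRNA that organizes contacts between chromosomes in the nucleus, had the highest fold in SW480, 8.89, and a fold of 12.4 in HCT116. Its pileups were close, 54 fragments in SW480 and 58 in HCT116, over backgrounds of 5.19 and 3.75. Both summits lay just inside the 5′ end, 165 and 142 bp from the start at position 131830643, with 23 bp between them. SW480 had a further region at this end with a fold of 4.33. The gene lies 146525 bp from the nearest coding gene, OR13H1, so among the strongest members it was one of the most remote.

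DANCR, a lncRNA that restrains differentiation and carries a small nucleolar RNA, had folds of 8.80 in HCT116 and 6.24 in SW480, with 51 and 54 fragments. The gene spans 52712394 to 52720697 on chromosome 4. Its summits lay 938 and 758 bp into the gene, and ends of SNORA26 and MIR4449, encoded within it, lay within 1 kb of them. The HCT116 region extended over 4091 bp and included the whole printed promoter, whereas the SW480 region of 1314 bp began downstream of it. LOC105373760 on chromosome 2 had folds of 6.95 and 7.83, and the overlapping genes LINC00339 and LINC01635, transcribed from opposite strands, shared 1 region with folds of 6.69 and 5.34. Its summits lay between the 2 starts, 455 and 516 bp into LINC00339 and 402 and 341 bp into LINC01635.

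A smaller set had the higher fold in SW480. LINC02313 on chromosome 14 had folds of 8.59 in SW480 and 4.94 in HCT116, from 68 and 34 fragments over backgrounds of 7.03 and 6.08. The strongest SW480 summit lay 565 bp upstream of the start, and the HCT116 summit 93 bp into the gene. A second SW480 region, with a fold of 3.17, lay 25 bp from the HCT116 summit, so the strongest peaks of the lines were not at the same place. LOC124905199, inside the 5′ part of FTX on the X chromosome, had folds of 8.08 in SW480 and 4.39 in HCT116, and these summits too lay apart. The SW480 summit was 360 bp into LOC124905199 and the HCT116 summit 418 bp upstream of its start, in the region that also serves FTX. The SW480 region that also serves FTX had a fold of 3.69, below the 4.39 of HCT116. LINC02453, with 6.20 and 5.05, and LOC105371062, with 5.66 and 4.58, were also higher in SW480, and LINC03061 had nearly equal folds of 5.26 and 5.19.

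Both lines had an end peak at 122 isolated lncRNA genes, 28.8% of the HCT116 genes and 52.8% of the SW480 genes. HCT116 had a peak without an SW480 counterpart at 301 genes, and SW480 had one without an HCT116 counterpart at 109. Over all genes of the table, 5383 had an end peak in both lines, of 12039 in HCT116 and 6121 in SW480. Counted as genes, the shared part at isolated lncRNA genes was thus smaller than over all genes. Counted as regions, 111 of 463 HCT116 regions overlapped an SW480 region by at least 1 bp (24%, interval 20.3 to 28.1%), and 135 of 273 SW480 regions overlapped an HCT116 region (49.5%, interval 43.6 to 55.4%). Over all regions the shares were 24.2% and 49.1%, so overlap at isolated lncRNA ends stood at the level of the whole lists. Regions at coding gene ends overlapped in 38.2% of HCT116 and 88.7% of SW480 cases. The overlap at isolated lncRNA ends was thus lower than at coding ends in both lists, with the wider gap in SW480.

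**Figure D4:**
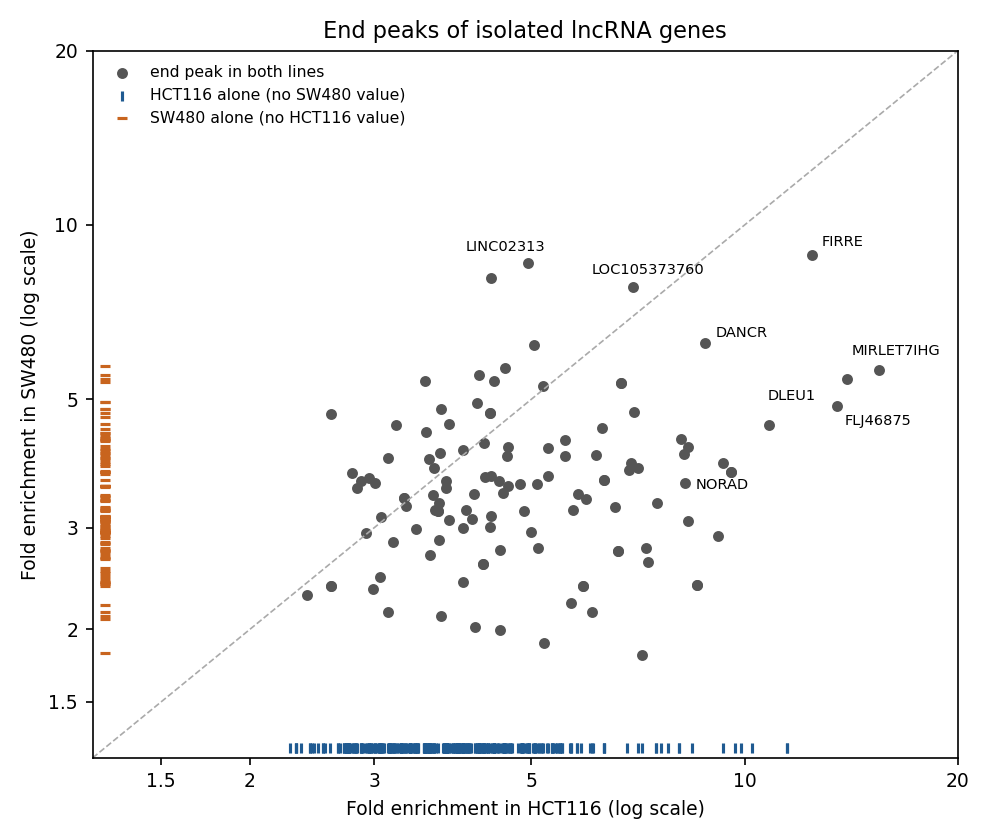
Fold enrichment of the strongest end peak of each isolated lncRNA gene in HCT116 (horizontal) and SW480 (vertical), both on log scales, with equality dashed. Grey points are the 122 genes with an end peak in both lines, blue ticks along the bottom are the 301 genes of HCT116 alone and orange ticks on the left are the 109 of SW480 alone, which have no value in the other line. FIRRE stands highest in SW480 at 8.89, MIRLET7IHG farthest right in HCT116 at 15.5, and LINC02313 above the dashed line at 8.59 and 4.94.

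At the 122 shared genes the lines differed more in background than in fragments at the summit. The HCT116 fold was the higher at 91 of them, with medians of 4.51 in HCT116 and 3.57 in SW480. The HCT116 pileup was the higher at 50, with medians of 33 and 37 fragments, and the HCT116 background was the lower at 104, with medians of 5.65 and 10.1. Fold is the ratio of signal to this background, and the background was itself solved from the fold. Their opposite directions at most shared genes are therefore tied by the formula and are not separate observations. The summits of the lines lay within 250 bp of each other at 70 genes, more than 1000 bp apart at 12, and at a median distance of 152 bp.

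Shared regions had the higher median folds, more clearly in HCT116. In HCT116 those that overlapped SW480 had a median fold of 4.51 and a median width of 1033 bp, against 3.69 and 540 bp for the others, and 21.6% against 4.26% were in the top 10% of the list. In SW480 the median folds were 3.42 and 3.13, with overlapping intervals (3.20 to 3.58 and 2.99 to 3.27). A wide region can meet the 1 bp overlap rule more easily, and the part of width was not tested. Near misses were few: of the 301 genes of HCT116 alone, 27 had an SW480 summit within 5 kb of the HCT116 summit, and of the 109 of SW480 alone, 19 had an HCT116 summit that close. The absence of a called peak at these depths does not show absence of BRD8.

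Among the genes of HCT116 alone, LOC124900877 and LOC102723906, which start close together on opposite strands of chromosome 4, shared 1 region with a fold of 11.5 from 83 fragments. LOC124905122 on chromosome 22 reached 10.25 from 61 fragments, LOC105379051 on chromosome 5 reached 9.90 from 60, and LINC00839 on chromosome 10 reached 9.69 from 45. LINC01515 had a fold of 9.33, LOC124904013 and LINC00941 each 8.07, MINCR 7.80 and LOC105372862 7.62. The SW480 list had a summit 4418 bp from that of the first pair, and the other genes named had no SW480 region within 5 kb, as was true of 271 genes in all. LINC00941 has been described as a cancer-associated lncRNA, and MINCR is named for its induction by MYC. The genes named here were picked for a high fold or −log10 q. Their folds above the median of 3.88 for the genes of HCT116 alone therefore reflect that choice.

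Ranked by fold within their own list, SW480 regions that overlapped no HCT116 region had a median percentile of 38.5 (interval 32.9 to 46.9). HCT116 regions that overlapped no SW480 region had 49.5 in their list (interval 44.5 to 53.9), and the intervals overlapped. Folds of different libraries do not compare directly, so the folds at genes of SW480 alone are given for that line only. Among the highest were LOC105371442, 4918 bp from S100A11 with a fold of 5.70, LOC105377177 with 5.49 and LOC101928126 with 5.36 from 38 fragments. LOC107985720 and LOC105373193 on the X chromosome shared 1 region with 4.80, PRNCR1 had 4.73, LOC107985005 had 4.66, PCAT2 had 4.54 and LINC02863 had 3.53 from 57 fragments over a background of 15.4. LOC101928126, whose promoter is printed above, had its strongest summit 527 bp upstream of the start. Its second SW480 summit lay 699 bp into this gene of 1310 bp, within 1 kb of both ends and nearer to the 3′ end. The median over all 109 genes was 3.21, and 90 of them had no HCT116 region within 5 kb.

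Well-known lncRNA genes were then read from a list of 77 symbols, chosen for abundance or for a described part in cancer. The list was drawn up with earlier results of these data known. Of these, 37 were isolated lncRNA genes, 39 were not isolated or had another biotype, and LINC01578 was not in the table. An end peak was found at 14 of the 37 in HCT116 and 13 in SW480, at 10 in both lines, beside 4.33% and 2.37% of all isolated lncRNA genes and 20.4% and 10.4% of all genes. FIRRE, DANCR and DLEU1 are given above. NORAD, which binds Pumilio proteins and guards genome stability, had folds of 8.23 in HCT116 and 3.58 in SW480, with 45 and 49 fragments over backgrounds of 4.59 and 13.0. The NORAD summits lay 73 and 30 bp upstream of the start, inside the printed sequence.

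FTX and JPX, noncoding genes of the X inactivation centre, had peaks at their 5′ ends in both lines. FTX had folds of 4.39 in HCT116 and 3.69 in SW480, and JPX 2.87 and 3.62. LUCAT1, a stress-responsive lncRNA, had 3.65 and 3.80, and LINC00491 had 4.19 and 4.92. At these 4 genes the summits held 20 to 37 fragments, and the folds ranked from percentile 15.6 of the list, JPX in HCT116, to percentile 92.7, LINC00491 in SW480. HCT116 alone had peaks at LINC01234 with 4.97, MIR34AHG with 5.35, MIR181A1HG with 4.83 and LINC00460 with 3.30.

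The remaining listed genes with peaks lay beside MYC on chromosome 8. PVT1 had a fold of 9.32 in HCT116 from 92 fragments over a background of 8.97, and 3.88 in SW480 from 162 fragments over a background of 41.0. Both pileup and background of PVT1 in SW480 were the highest of any isolated lncRNA region in that line. CCAT1 had folds of 4.55 and 3.44, and PCAT1, CASC19 and CASC21 had peaks in SW480 alone with 2.67, 2.44 and 3.10, over backgrounds of 14.4, 19.9 and 13.8. These backgrounds stood above the SW480 median of 8.65, and their part in the calls was not tested.

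No end peak was called in either line at 20 of the 37 listed isolated genes. These were CYTOR, LINC00667, MIR99AHG, MIR155HG, MIR503HG, MIR193BHG, MIR29B2CHG, MIR222HG, LINC00511, LINC02418, HULC, BCAR4, LINC00261, LINC01638, LINC02474, PURPL, PINCR, MEG3, BANCR and LINC-ROR. They include the microRNA host of miR-155, the imprinted gene MEG3 and p53-responsive genes such as PURPL and PINCR. Their transcription in these lines was not measured here.

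MicroRNA hosts formed a small group. A microRNA hairpin lay between the ends of 95 isolated lncRNA genes, of which 10 (10.5%, interval 5.82 to 18.3%) had an end peak in HCT116 and 6 (6.32%, interval 2.93 to 13.1%) in SW480. Of all isolated lncRNA genes, 4.33% and 2.37% had one, and of all genes 20.4% and 10.4%. MIRLET7IHG, MIRLET7A1HG, DANCR and FTX had one in both lines. The mature sequences of the hosted let-7, miR-200 and miR-34 microRNAs are shown because most fall into families by their seed, bases 2 to 8, given in capitals. The sequences are from RefSeq.
hsa-let-7i-5p: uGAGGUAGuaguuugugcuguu
hsa-let-7a-5p: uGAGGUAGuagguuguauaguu
hsa-let-7f-5p: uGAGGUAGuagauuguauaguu
hsa-let-7d-5p: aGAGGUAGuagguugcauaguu
hsa-miR-200b-3p: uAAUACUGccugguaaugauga
hsa-miR-429: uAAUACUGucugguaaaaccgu
hsa-miR-34a-5p: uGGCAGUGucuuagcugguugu
The 4 let-7 microRNAs, which restrain growth-promoting targets, share 1 seed and come from the 2 hosts MIRLET7IHG and MIRLET7A1HG. At MIRLET7IHG the summits lay 1058 bp from the let-7i hairpin in HCT116 and 1053 bp in SW480. At MIRLET7A1HG, which carries let-7a, let-7f and let-7d on chromosome 9, the folds were 8.22 in HCT116 and 4.01 in SW480, and the summits lay 10107 and 9699 bp from the let-7a hairpin. MIR200BHG, host of the epithelial microRNAs miR-200b and miR-429 with a common seed, had a fold of 5.68 in HCT116 alone, 4100 bp from the miR-200b hairpin. MIR34AHG, host of the p53-responsive miR-34a, had its HCT116 summit 30436 bp from the hairpin. The same region served LNCTAM34A on the opposite strand. Its summit lay 9 bp from the start of LNCTAM34A and 125 bp from that of MIR34AHG.

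Promoter composition differed between genes with a 5′ peak and those without, though the groups overlapped. Composition was read from 5499 isolated lncRNA genes whose listed start was the gene's end, in the same window of 300 bases, and a 5′ peak here means a summit within 1 kb of that start. Median GC content was 59.3% at the 245 genes with a 5′ peak in HCT116 and 54.7% at the 132 in SW480, against 45.7% at the 5149 genes with no end peak in either line. At coding genes with a 5′ peak it was 65.3% and 64.3%. Promoters rich in CpG, with GC of at least 50% and an observed over expected CpG ratio of at least 0.6, made up 44.1% and 37.9% of the lncRNA promoters with a peak, 7.98% of those without, and 88.3% and 88.8% of coding promoters with a peak. LncRNA starts with BRD8 were thus intermediate between lncRNA starts without it and coding starts with it.

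Seen the other way, 108 of 533 CpG-rich isolated lncRNA promoters had a 5′ peak in HCT116 (20.3%, interval 17.1 to 23.9%) and 50 in SW480 (9.38%, interval 7.19 to 12.2%). Of the 4966 others, 137 (2.76%) and 82 (1.65%) had one. Coding genes with CpG-rich promoters had 5′ peaks in 64.5% and 33.5% of cases and other coding genes in 15.1% and 7.46%. Within each class of promoter, the lncRNA share was therefore below the coding share. Across classes of GC content, the HCT116 share of lncRNA genes was 1.05% under 40% GC, then 2.06%, 5.66% and 12.7%, and 25.8% at 70% and over. The SW480 shares were 0.905%, 1.68%, 2.99%, 5.71% and 8.43%. GC content can change the recovery of fragments in a ChIP library, and its part in these shares was not tested.

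**Figure D5:**
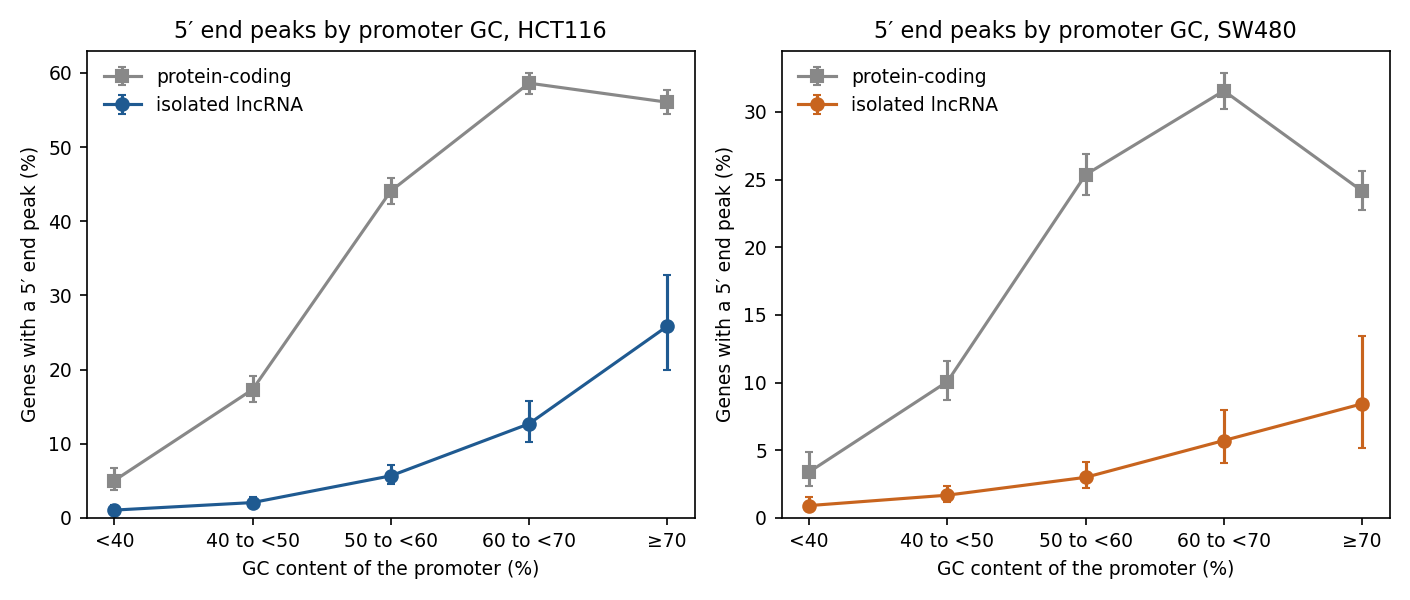
Percent of genes with a 5′ end peak (vertical axis) by GC content of the 300-base promoter (horizontal axis) in HCT116 (left) and SW480 (right), for protein-coding genes in grey and isolated lncRNA genes in color. Points are shares and error bars 95% Wilson intervals. The lncRNA share was 1.05% in the lowest and 25.8% in the highest GC class in HCT116 and 0.905% and 8.43% in SW480, and lay below the coding share in every GC class.

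Genes of HCT116 alone and of SW480 alone differed in composition. CpG-rich promoters were 66 of 165 in HCT116 alone (40%, interval 32.8 to 47.6%), 8 of 52 in SW480 alone (15.4%, interval 8.01 to 27.5%) and 41 of 78 in genes with a 5′ peak in both (52.6%, interval 41.6 to 63.3%). Median GC was 59.0%, 48.5% and 59.3%. The intervals of the genes of 1 line did not overlap. Of the printed starts, LOC101928126, with a peak in SW480 alone, had an observed over expected CpG ratio of 0.271. Among those with peaks in both lines, LINC02313 had 0.203, DLEU1 0.915 and MIRLET7IHG 0.856. The strongest SW480 summits of LINC02313 and LOC101928126 lay 565 and 527 bp upstream of the start, outside the window in which CpG was read. FIRRE, with 0.272, was a CpG-poor start with a strong peak in both lines. Its strongest summits, 142 bp into the gene in HCT116 and 165 bp in SW480, also lay outside that window, as did those of DLEU1.

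The motifs were searched on both strands, and none contains another. GGGCGG is the box bound by the SP and KLF factors, and CCGGAAG is the core read by ETS factors. CACGTG is the E-box of MYC, MAX and USF proteins, and CCAAT is the box of the trimeric factor NF-Y. TGANTCA, with any base at N, takes in TGACTCA, the element of AP-1, the FOS and JUN dimer. It also takes in TGAATCA, as at LINC00339, so it is broader than that element. TATAAA is a TATA box. AAGATGG is the core of YY1 sites, and TGACGTCA is the cyclic AMP response element (CRE). The palindromes of NRF1 and ZBTB33 complete the 10. GGGCGG was present in 46.1% of isolated lncRNA promoters with a 5′ peak in HCT116, 37.1% in SW480 and 12.5% without a peak, and in 44.0% of all 24777 promoters of the table. CCGGAAG was present in 11.8%, 12.9% and 2.99%, with 10.7% over all promoters, and CACGTG in 9.80%, 10.6% and 4.43%, with 7.42% over all. These 3 motifs hold many G and C letters. The part of base composition in these motif shares and in those below was not tested. A match is a description of the letters and not a binding site.

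CCAAT was about as frequent with a 5′ peak, 31.8% in HCT116 and 34.8% in SW480, as without one, 37.5%, and over all promoters, 36.1%. TATAAA was present in 13.1% and 12.9% with a peak and 19.6% without. TGANTCA, the broad AP-1 pattern, was present in 15.1% and 16.7% of isolated lncRNA promoters with a 5′ peak and 11.9% of those without. Coding promoters with a 5′ peak held it in 3.96% and 4.10% of cases, and all promoters in 7.81%. It was present in 12 of the 52 promoters of SW480 alone (23.1%, interval 13.7 to 36.1%), 27 of the 165 of HCT116 alone (16.4%) and 10 of the 78 of both lines (12.8%), and the intervals of these 3 groups overlapped. YY1 matches were found in 3.67% and 3.79% of promoters with a 5′ peak, 5.67% without a peak and 6.18% over all promoters. CRE matches were found in 2.04% and 0.758%, 0.563% without and 2.01% over all. NRF1 matches were found in 1.63% and 2.27%, 0.466% without and 1.38% over all, and rest on 4 promoters in HCT116 and 3 in SW480. ZBTB33 matches were found in none of the 245 or 132 promoters with a peak, 0.0388% without and 0.480% over all.

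Shares by chromosome were uneven. On chromosome 22, 19 of 169 isolated lncRNA genes had an end peak in HCT116 (11.2%, interval 7.32 to 16.9%), the highest share of any chromosome in that line, and 2 had one in SW480 (1.18%, interval 0.325 to 4.21%). Coding genes of chromosome 22 had end peaks in 44.3% of cases in HCT116 and 17.5% in SW480, near or below the 44% and 22.1% of all coding genes. The 19 genes included LOC105372862, LOC124905122, MIAT, a lncRNA of neurons and heart, and EP300-AS1. On the X chromosome the order was the other way, with 7 of 200 genes in HCT116 (3.50%) and 11 in SW480 (5.50%), and on chromosome 7 the counts were 22 and 23 of 478. Coding genes had the higher share in HCT116 on both, with 22.2% and 13.9% on the X chromosome and 41.0% and 26% on chromosome 7. The intervals on the X chromosome overlapped between the lines (1.71 to 7.05% and 3.10 to 9.58%). Chromosomes were ranked after their values were seen.

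Several members share their place with other annotation, so members are not independent of each other. A single region served at least 2 isolated lncRNA genes in 42 HCT116 cases (9.07%) and 20 SW480 cases (7.33%), and 75 and 52 genes had at least 2 regions. An end of another kind of gene lay within 1 kb of the summit at 55 HCT116 regions (11.9%) and 25 SW480 regions (9.16%). These included tRNA genes at 17 and 5 regions and lncRNA genes that were not isolated at 19 and 9. LINC02453 was one of the genes whose end lay beside tRNA genes. The nearest coding gene had an end peak of its own for 269 HCT116 regions (58.1%) and 91 SW480 regions (33.3%). Over all coding genes the shares were 44% and 22.1%. The first pair counts regions, so a coding gene near several regions enters more than once, and the 2 pairs do not compare directly.

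The limit of 1 kb cut through a continuous spread of distances. The members closest to the limit in HCT116 were at LINC01806, 974 bp from the end with a fold of 2.95, LOC105369617, 990 bp and 3.37, and LOC124902454, 993 bp and 3.43. Just outside it were LOC124900746 at 1008 bp with 3.99, PPP1R26-AS1 at 1013 bp with 5.03 and LOC105374748 at 1025 bp with 2.92. In SW480 LOC107986141 and LINC02362 at 978 bp, with 2.95 and 3.96, and LINC01963 at 989 bp with 2.94 were inside. LOC112267858 and LOC105378977 at 1002 bp, with 4.52 and 4.92, and CCAT2 at 1008 bp with 2.80 were outside. Summits more than 1 kb and up to 2 kb from the end of an isolated lncRNA gene numbered 208 in HCT116 and 154 in SW480.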

How the data were processed

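Peak lists of 1 BRD8 ChIP library each from HCT116 and SW480 were analysed, and the signal of the inputs themselves was not used here. The authors used, per the submitters' processing notes, Trimmomatic 0.33, Bowtie2 2.4.1, the peak caller MACS2 and deepTools with the GRCh38 build. For read filters, duplicate handling and read totals, nothing is stated in the labels or headers. Peaks were called per library, and no −log10 q in the deposited lists is under 1.30, so q of 0.05 was the limit. The fold enrichment was deposited as a ratio, ChIP signal over local background, taken where the summit lies. The summit's −log10 p-value and −log10 q-value were deposited beside it. The deposited score equals the −log10 q multiplied by 10 and cut to an integer in 99.81% (HCT116) and 99.98% (SW480) of the peaks. The deposited summit offset places the summit within the region.

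Pileup and background at the summit were solved from the deposited fold and −log10 p for 99.99% of HCT116 and 99.98% of SW480 peaks, a procedure tested on simulated data. Each region's fold was ranked within its own list. A gene's value is its region of highest fold. The gene table was RefSeq's for GRCh38.p14 and has no strand, so strand and starts came from a RefSeq promoter table that matched 5726 of 9758 isolated lncRNA genes and lists none on chromosome 8. Gene names were matched by symbol. Chromosomes 1 to 22 and X were used. Shares have 95% Wilson intervals, and medians have order-statistic intervals. Python 3.11.15, pandas 2.3.3, numpy 2.4.6, scipy 1.17.1 and matplotlib 3.10.9 were used.

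The members and the gene lists were chosen with earlier results of these data known. The rule for naming genes took in each line the top 8 by fold, and the top 8 by −log10 q among genes whose end was at least 5 kb from any peak of the other line. It further took the 8 shared genes with the largest smaller fold, the strongest gene of each name class, the listed well-known genes that were isolated, and the 3 members on each side of the window limit. Other genes were named after their values were seen. These are the microRNA hosts MIRLET7A1HG and MIR200BHG, the X-linked and chromosome 22 examples and the genes beside the summits. Alternatives covered the peak threshold, equal list lengths, the window, the isolation distance, LOC genes and the overlap rule. Leaving out summits beside genes that are neither lncRNA nor protein-coding was added after seeing the data.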

Additional observations from a re-analysis of the deposited data

How the results depend on the processing

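Of 67 values recomputed under other settings, 48 stayed within the allowed range (a count within 1.5 times, a share or median within its interval) and 19 did not. Requiring a −log10 q of at least 5 left 274 genes with an end peak in HCT116, 137 in SW480 and 70 in both, with median folds of 4.47 and 3.79, which follows from keeping stronger peaks. Cutting the HCT116 list to the length of the SW480 list gave a HCT116 median fold of 4.39 and overlaps with the other line of 30.9% in HCT116 and 42.5% in SW480, which follows from removing the weaker HCT116 peaks. A window of 2 kb gave a HCT116 median fold of 3.69 and a SW480 overlap of 42.4%, and the cause was not tested. Without LOC genes, 183 genes had an end peak in HCT116, 122 in SW480 and 74 in both, of 2599 (7.04%, 4.69% and 2.85%). The HCT116 median fold was then 4.02 and the overlaps 32.5% and 57.2%, and the cause was not tested. Counting a region as shared where at least 50% of it overlapped gave 11.7% in HCT116 and 42.1% in SW480, a stricter rule by construction. Requiring summits within 500 bp in place of overlap gave 37.4% in SW480, and the cause was not tested. HCT116 had more genes with an end peak than SW480 under each of the settings for which genes were recounted, which leaves out the rules for overlap. No paired analysis was possible because each line has 1 ChIP library, and for the same reason no replicate could be left out. Depth limits the calls: the lowest pileup at a summit was 12 fragments over all HCT116 regions and 13 over all SW480 regions, and 13 and 14 at isolated lncRNA ends.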
